A study of Sus scrofa with 6 samples.

Results

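Heat shock proteins and chaperones are described here in cultured primary epithelial cells of the pig endometrium, the inner lining of the uterus. The members are the rows of the expression table whose gene symbol starts with HSPA, HSPB, HSPD, HSPE, HSPH or HSP and a digit, with DNAJ, or with CCT2 to CCT8. This rule found 50 of the 10915 genes with values. It works on symbols alone, but it was chosen with earlier results of these data known. All 50 had a mean of at least 1 FPKM (fragments per kilobase of transcript, scaled to the size of the library), so all were tested. The cells came from uteri of slaughtered pigs and were used at passage 3, and every group was grown in medium with fetal serum. The exosome group received 10 µg per well of vesicles precipitated from the sperm-rich fraction of boar seminal fluid, and was kept with them for 48 h. Control cells had no exosome treatment, and no label mentions a mock precipitate. Each group held 3 libraries. Whether those libraries stem from different animals or wells is not given, so p-values measure the spread between libraries, which may be technical.

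Chaperones help other proteins fold, unfold, assemble or reach a compartment. Hsp70 proteins bind short unfolded stretches in a cycle of ATP hydrolysis that J-domain proteins (DNAJ) start and that Hsp110 proteins reset by releasing ADP. Hsp90 completes the folding of kinases and steroid receptors, small heat shock proteins hold unfolded chains without ATP, and ring-shaped chaperonins enclose a chain: HSPD1 with its lid HSPE1 in mitochondria, and the CCT ring in the cytosol. In the endometrium these proteins serve the steroid receptors and the folding of secreted uterine proteins.

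No chaperone gene passed the test between the groups after adjustment over all genes. At an adjusted p of 0.05 in limma the count was 0 of 50 members and 0 of all 10846 genes tested (0%). At an unadjusted p under 0.05 there were 7 members (14.0%), against 12.6% of all genes tested, a share near the background. They were 5 with higher and 2 with lower values, against 5.06% and 7.5% of all genes. Higher values were found in HSPA9, HSPD1, DNAJC2, CCT4 and CCT8, and lower values in DNAJB1 and HSPB8. Under quantile normalization the count was again 7, with 7 higher and 0 lower, but the genes were not the same. HSPE1 and HSP90B1 came in, and DNAJB1 and HSPB8 dropped out, so the place of both lower genes depended on the scaling. DNAJB1 and HSPB8 stayed lower there, with log2 differences of -0.12 and -0.27, against -0.15 and -0.31 in the reported analysis. The groups did not overlap in 6 members (12.0%), against 18.7% of all genes. The exosome libraries lay above the controls in 5 of these (8.29% of all genes) and below in 1 (10.4% of all genes).

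The differences were small. Their median on the log2(FPKM + 1) scale was 0.01 over the 50 members and -0.00229 over all genes tested, and they ran from -0.31 in HSPB8 to 0.22 in HSPD1. The 95% interval of a member had a median half-width of 0.15. It lay inside a 1.5-fold change of FPKM + 1 either way in 48 members. The exceptions were HSPB8 (-0.59 to -0.03) and CCT6B (-0.81 to 0.21). In low genes such as DNAJC28 (-0.47 to 0.10, control mean 1.97 FPKM) a change of FPKM + 1 understates that of FPKM.

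**Figure D1:**
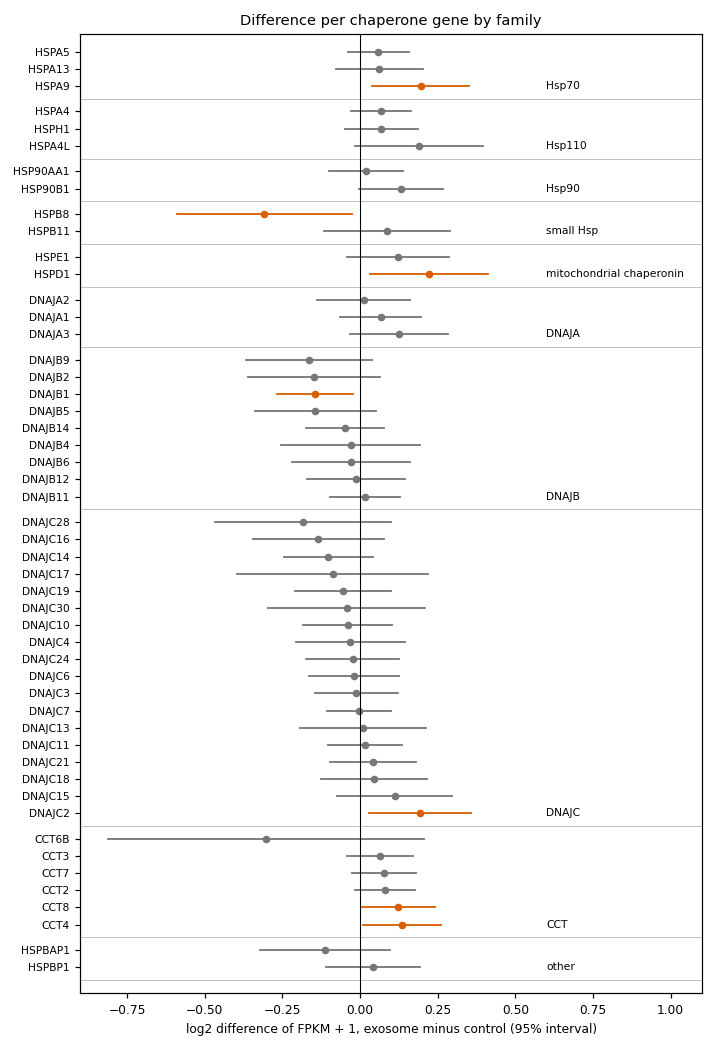
Log2 difference of FPKM + 1 (exosome minus control) with its 95% interval for each of the 50 chaperone genes, grouped by family; orange marks an unadjusted p under 0.05. The 7 orange genes lie between -0.31 and 0.22, and none passed after adjustment over all genes.

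Chaperone transcripts were among the more abundant ones. Their median level over the 6 libraries was 33.3 FPKM, against 14.8 FPKM for all genes, and 37 of the 50 lay above the latter. HSPA5, the Hsp70 of the endoplasmic reticulum, ranked highest among them at position 156 of all genes, and HSP90AA1, a cytosolic Hsp90, followed at position 180. The 10 most abundant members held 68.8% ± 0.388 (SD, n = 3) of the summed chaperone FPKM in control libraries and 70.2% ± 0.735 (SD, n = 3) in exosome libraries. All 10 had a positive log2 difference, from 0.02 to 0.22, and none passed. The 50 members made up 0.749% ± 0.0139 (SD, n = 3) of all FPKM in control libraries and 0.814% ± 0.0336 (SD, n = 3) in exosome libraries (exact permutation p = 0.1, two-sided). That is the smallest p that 3 against 3 libraries allow. The summed FPKM of all genes was itself lower in the exosome libraries, at 690258 to 711250 against 721273 to 732922. The summed FPKM of the members overlapped, at 5560 to 5872 in the exosome libraries and 5320 to 5589 in the controls.

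**Figure D2:**
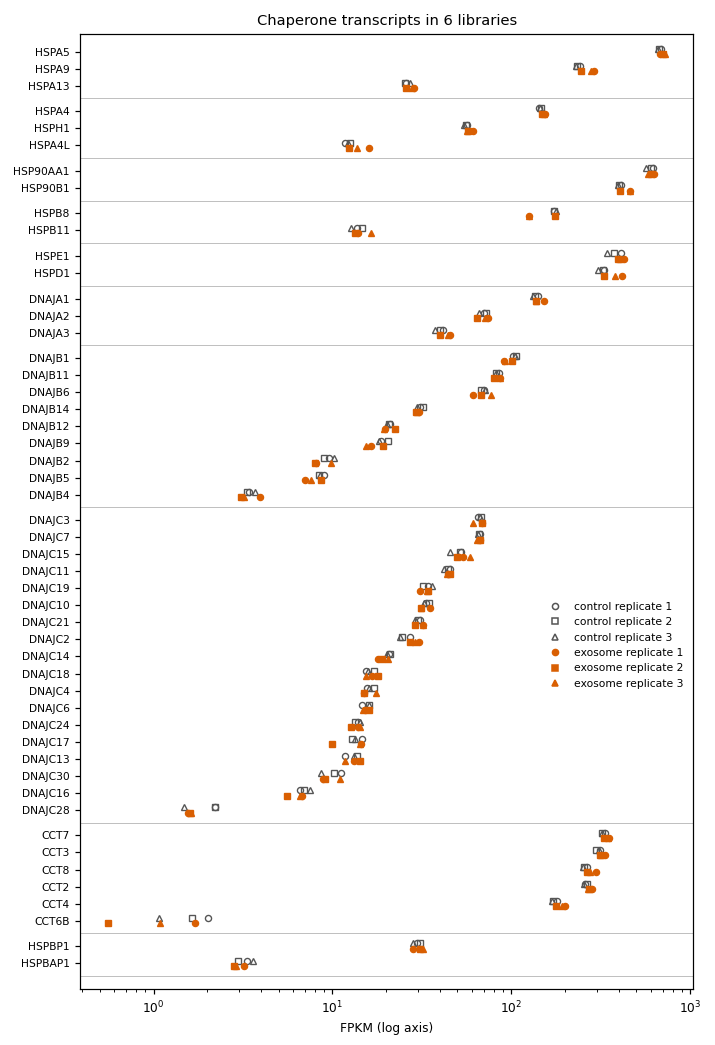
FPKM on a log axis of the 50 chaperone genes in the 6 libraries, ordered by level within each family (open grey, control; filled orange, exosome; the symbol gives the replicate). The levels run over more than 2 orders of magnitude, from CCT6B at a mean of 1.35 to HSPA5 at 688 FPKM, and most groups of points overlap.

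The mitochondrial chaperones HSPA9, HSPD1 and HSPE1 were at higher values in the exosome libraries, without passing the test. HSPD1 (ENSSSCG00000016077; Sscrofa11.1, chromosome 15, 101360355 to 101373498) encodes Hsp60, the folding chamber of the mitochondrial matrix. It was at 331, 326 and 306 FPKM in control replicates 1, 2 and 3 and at 417, 332 and 380.5 in exosome replicates 1, 2 and 3. Exosome replicates 1 and 3 stood well above the controls, and replicate 2 lay less than 1 FPKM above the highest control. The means were 321 ± 13.3 and 376 ± 43.1 FPKM (SD, n = 3 per group), a log2 difference of 0.22 (SE 0.08, adjusted p = 0.342), or 0.15 without exosome replicate 1.

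HSPE1 (ENSSSCG00000016078; chromosome 15, 101374019 to 101376146) encodes the Hsp10 lid of that chamber, and its gene starts 520 bases beyond the end of HSPD1 in the RefSeq annotation. Mammalian HSPD1 and HSPE1 share a promoter region that reads out in both directions. HSPE1 was at 412, 376 and 342 FPKM in the controls and 425, 396 and 405 in the exosome libraries, and the groups overlapped through control replicate 1. Its log2 difference was 0.12 (SE 0.07, adjusted p = 0.512), and it was 0.19 without control replicate 1 and 0.0548 without control replicate 3. The ratio of HSPD1 to HSPE1 was 0.804, 0.869 and 0.896 in the controls and 0.981, 0.837 and 0.939 in the exosome libraries. The ratios overlapped, with means of 0.856 ± 0.0476 and 0.919 ± 0.0740 (SD, n = 3 per group; exact permutation p = 0.3, two-sided). The smallest p that 3 against 3 libraries allow is 0.1, so this test could not reach 0.05.

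HSPA9 (ENSSSCG00000014338; chromosome 2, 140515239 to 140532164), or mortalin, is the mitochondrial Hsp70 that pulls precursors into the matrix. It was at 243, 233 and 229.9 FPKM in the controls and at 289, 244 and 278 in the exosome libraries. The groups did not overlap, although exosome replicate 2 exceeded control replicate 1 by less than 1 FPKM. The means were 235 ± 6.73 and 270.2 ± 23.6 FPKM (SD, n = 3 per group), a log2 difference of 0.19 (SE 0.07, adjusted p = 0.330), and this adjusted p was the lowest among the 50 members. DNAJA3, the J-domain partner of HSPA9, was at 41.3, 39.7 and 37.2 FPKM in the controls and 45.7, 39.8 and 44.0 in the exosome libraries (log2 difference 0.13, adjusted p = 0.485). DNAJC15 and DNAJC19, J-domain proteins of the import motor, had log2 differences of 0.11 and -0.05 (chosen after their values were seen). TRAP1, the mitochondrial Hsp90, was at 69.0 and 71.3 FPKM in the control and exosome means (adjusted p = 0.815), and is likewise named after its values were seen. LONP1, a protease of the matrix, was at 29.8 and 28.9 FPKM (adjusted p = 0.787).

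**Figure D3:**
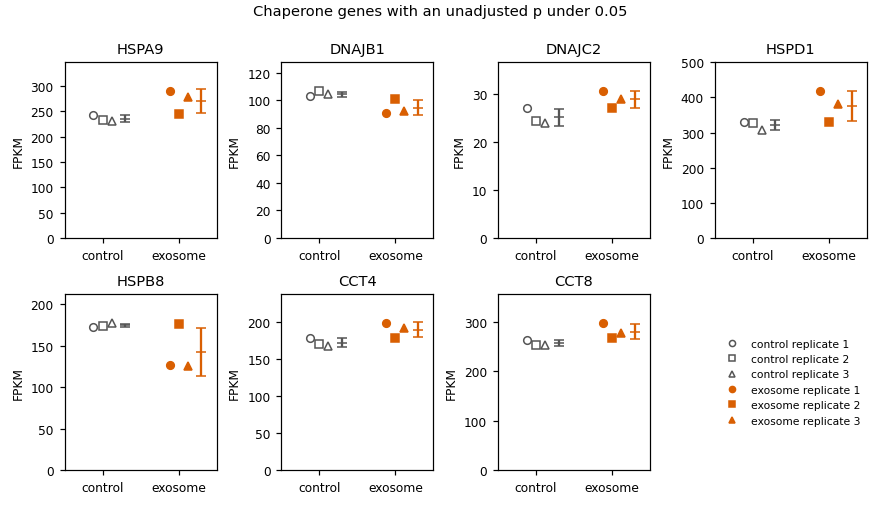
FPKM in each library, with the mean and SD beside the points, of the 7 chaperone genes with an unadjusted p under 0.05 (open grey, control; filled orange, exosome; each axis starts at 0). In HSPB8 exosome replicate 2 lies at the control level of 174 FPKM while replicates 1 and 3 lie near 126.

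The CCT ring folds actin and tubulin, and 5 of its subunits under the CCT2 to CCT8 symbols were well expressed. All 5 had higher means in the exosome libraries, with log2 differences from 0.06 to 0.13 and adjusted p-values from 0.373 to 0.592, so none passed. CCT4 (ENSSSCG00000008377; chromosome 3, 79924338 to 79941926) was at 179, 170.3 and 168 FPKM in the controls and 198, 178 and 192 in the exosome libraries. Its groups overlapped, because exosome replicate 2 lay under control replicate 1 (log2 difference 0.13, SE 0.05, adjusted p = 0.373). CCT8 (ENSSSCG00000026761; chromosome 13, 192407831 to 192423466) was at 264, 254 and 252 FPKM in the controls and 296, 266 and 276 in the exosome libraries. Its groups did not overlap (log2 difference 0.12, SE 0.05, adjusted p = 0.389), and the difference was 0.0804 without exosome replicate 1. CCT2 also did not overlap, at 256 to 264 against 268 to 282 FPKM, and is named after its values were seen. CCT7 and CCT3, the most abundant subunits, had log2 differences of 0.08 and 0.06 with overlapping groups, and that of CCT3 was 0.0355 without exosome replicate 1.

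The subunits stand in the ring in equal number, and FPKM can be set side by side between genes because it is scaled by length. Of the 5 subunits and TCP1, whose symbol lies outside the rule, and with the uncertain CCT6B row left out, TCP1 was the lowest in every library. It was at 120, 117 and 109.9 FPKM in the controls and 136, 122 and 130.0 in the exosome libraries (log2 difference 0.16, adjusted p = 0.338). CCT7 was the highest in every library. The highest stood 2.58 to 2.92 times above the lowest, and the coefficient of variation over the 6 subunits was 33.2%, 33.0% and 34.8% in the controls and 31.2%, 32.6% and 31.7% in the exosome libraries. With the CCT6B row included, that coefficient was 54.9% to 57.4% and CCT6B was the lowest. CCT5 and CCT6A are not analysed here. The row labelled CCT6B, in mammals a form made mainly in the testis, is named after its values were seen and was at 1.07 to 2.02 FPKM in the controls and 0.558 to 1.72 in the exosome libraries. A second identifier carries the name CCT6B in the reference table, at 0.999 and 1.06 FPKM in the group means, so which gene either row measures is uncertain.

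**Figure D4:**
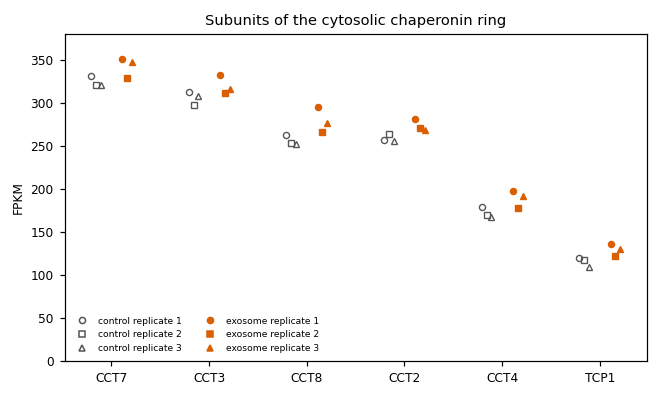
FPKM of 6 subunits of the cytosolic chaperonin in the 6 libraries (open grey, control; filled orange, exosome; the symbol gives the replicate). The order of the subunits is nearly the same in each library, from CCT7 above 320 FPKM to TCP1 below 137 FPKM, and exosome replicate 1 is the highest library for all 6.

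Hsp70 proteins outside mitochondria differed little. HSPA5 (BiP), which folds secretory proteins and restrains the stress sensors of the endoplasmic reticulum, was at 685, 672 and 664 FPKM in the controls and 679, 702 and 725 in the exosome libraries. Exosome replicate 1 lay within the control range, and the log2 difference was 0.06 with a 95% interval from -0.04 to 0.16 (adjusted p = 0.597), or 0.0355 without exosome replicate 3. HSPA13, an Hsp70 relative of microsomes, was at 25.5 to 27.3 and 25.8 to 28.6 FPKM.

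The Hsp110 proteins reload Hsp70 by exchanging its nucleotide. HSPA4 was at 143, 146 and 145 FPKM in the controls and 154, 148 and 151 in the exosome libraries. These groups did not overlap, with a log2 difference of 0.07 (adjusted p = 0.538). HSPH1, a heat-inducible form, had a log2 difference of 0.07 as well (adjusted p = 0.599). HSPA4L was at 11.7, 12.5 and 12.2 FPKM in the controls and 15.9, 12.4 and 13.8 in the exosome libraries, where replicate 2 lay inside the control range (log2 difference 0.19, adjusted p = 0.422). Without exosome replicate 1 the differences of HSPA4L and HSPH1 were 0.10 and 0.0364.

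HSP90AA1, the inducible cytosolic Hsp90, was at 622, 603 and 566 FPKM in the controls and 628, 605 and 582 in the exosome libraries. The ranges overlapped almost fully, and the log2 difference of 0.02 had a 95% interval from -0.10 to 0.14 (adjusted p = 0.912). HSP90B1 (GRP94), the Hsp90 of the endoplasmic reticulum that folds integrins and Toll-like receptors, was at 408, 399 and 395 FPKM in the controls and 459, 403 and 458 in the exosome libraries. Replicates 1 and 3 of the exosome group stood above the controls and replicate 2 among them (log2 difference 0.13, adjusted p = 0.403).

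Some well-known chaperones are outside the symbol rule because the table gives them another name or none. The reference gives names to 9 such rows, the ones described here being chosen after their values were seen, and none passed in limma (adjusted p from 0.402 to 0.931). HSPA8, the constitutive cytosolic Hsp70, was at 316, 311 and 348 FPKM in the controls and 333, 334 and 320 in the exosome libraries (log2 difference 0.02). HSP90AB1, the constitutive Hsp90 listed as HSPCB, was at 453, 433 and 424 FPKM in the controls and 460.2, 468 and 459 in the exosome libraries. Its groups did not overlap (log2 difference 0.08, adjusted p = 0.456). DNAJC9, a histone chaperone, did not overlap either, at 3.46 to 3.80 against 3.94 to 4.58 FPKM. Over all genes tested, the groups did not overlap in 18.7%. The inducible forms HSPA1A and HSPA1B, and the small heat shock protein HSPB1, are not analysed here. How reads shared by near-identical Hsp70 and Hsp90 copies were assigned is not given in the sources used here, so the levels of these genes are uncertain to that extent.

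On the log2(FPKM + 1) scale HSPB8 had the lowest difference among the members, and its exosome libraries differed widely among themselves. In percent of the control mean, HSPB8 was at -18.3%, and 2 low genes went further down, CCT6B at -29.2% and DNAJC28 at -18.9%. HSPB8 (ENSSSCG00000009844; chromosome 14, 33626125 to 33639824) is a small heat shock protein that works with BAG3 to pass damaged proteins to autophagy. It was at 173, 173 and 177 FPKM in the controls and at 126, 176 and 125 in the exosome libraries. Replicates 1 and 3 lay far below the controls, while replicate 2 lay within them, so the groups overlapped. The means were 174 ± 2.06 and 142 ± 28.9 FPKM (SD, n = 3 per group), a log2 difference of -0.31 (SE 0.12, adjusted p = 0.367). BAG3 itself was at 36.4 and 35.6 FPKM in the group means (adjusted p = 0.901; chosen after its values were seen). HSPB11, a subunit of the ciliary transport complex in spite of its symbol, was at 12.7 to 14.5 FPKM in the controls and 13.4 to 16.3 in the exosome libraries.

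J-domain proteins made up 30 of the 50 members. They were lower in mean in 20 and higher in 10, whereas the heat shock proteins and chaperonins without a J domain were higher in 16 of 18; over all genes tested 49.2% were higher. These are counts of signs with no test between the classes. An unadjusted p under 0.05 was reached by 2 of the 30 J-domain genes (6.67%) and by 5 of the 18 others (27.8%), which lie below and above the 12.6% of all genes. Both pairs of counts include genes whose difference is near 0. The classes also differed in level, with a median of 23.7 FPKM in the J-domain genes and 259.7 FPKM in the 18 others. The share over all genes is not matched for level.

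In class A, whose members bind unfolded chains themselves, DNAJA1 was at 140.1, 136 and 132 FPKM in the controls and 153, 138 and 137 in the exosome libraries (log2 difference 0.07, adjusted p = 0.655). Its difference rested on exosome replicate 1, without which it was 0.0158. DNAJA2 was at 65.6 to 71.9 and 64.7 to 73.9 FPKM, with a log2 difference of 0.01.

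In class B, 8 of 9 genes had a lower mean after exosomes, the median log2 difference was -0.05, and none passed. That median was -0.0996 without exosome replicate 3 and -0.0973 when low genes, with a mean under 5 FPKM, were left out. DNAJB1 (ENSSSCG00000013784; chromosome 2, 64761672 to 64764482), or Hsp40, is the main heat-inducible partner of cytosolic Hsp70. It was at 103, 106 and 104 FPKM in the controls and 90.6, 101 and 92.1 in the exosome libraries. All 3 exosome libraries lay below the controls, with replicate 2 nearest to them, and DNAJB1 was the 1 member for which this held. The means were 104 ± 1.84 and 94.4 ± 5.40 FPKM (SD, n = 3 per group), a log2 difference of -0.15 (SE 0.05, adjusted p = 0.342). DNAJB9 (ERdj4), a target of the unfolded protein response that acts on HSPA5, was at 18.8, 20.3 and 18.2 FPKM in the controls and 16.4, 19.2 and 15.4 in the exosome libraries. Replicates 1 and 3 were again below the controls and replicate 2 among them (log2 difference -0.17, adjusted p = 0.476). The difference was -0.25 without exosome replicate 2 and -0.0996 without exosome replicate 3. DNAJB11 (ERdj3), another partner of HSPA5, was at 81.9 to 84.9 and 80.2 to 86.3 FPKM. The remaining 6 class B genes ran from 3.44 FPKM in DNAJB4 to 69.4 in DNAJB6 in their mean over the libraries, with log2 differences from -0.15 to -0.01.

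Class C gathers proteins with a J domain and otherwise diverse functions, and 12 of its 18 genes had a lower mean in the exosome libraries (median log2 difference -0.02). The groups overlapped in all 18. DNAJC2 (ENSSSCG00000015423; chromosome 9, 103329873 to 103362599), which helps Hsp70 meet new chains at the ribosome, was at 27.1, 24.3 and 23.8 FPKM in the controls and 30.5, 27.0 and 28.9 in the exosome libraries. Exosome replicate 2 lay just under control replicate 1, and the log2 difference was 0.19 (SE 0.07, adjusted p = 0.342). HSPA14, its partner in that ribosome-bound complex, is named through the reference table and was at 44.2 and 49.1 FPKM in the group means (log2 difference 0.15, adjusted p = 0.453). DNAJC3, an inhibitor of the kinase PERK that also serves HSPA5, was at 66.5 ± 1.39 and 66.0 ± 4.11 FPKM, and DNAJC7, which links Hsp70 and Hsp90, at 65.9 ± 0.809 and 65.7 ± 1.51 FPKM (SD, n = 3 per group). Their 95% intervals were -0.14 to 0.12 and -0.11 to 0.10 on the log2 scale. DNAJC14, an escort of receptors out of the endoplasmic reticulum, was at 20.6, 20.9 and 20.2 FPKM in the controls and 18.1, 19.0 and 20.4 in the exosome libraries (log2 difference -0.10, adjusted p = 0.532), a difference of -0.0628 without exosome replicate 1.

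Among class C genes chosen after their values were seen, DNAJC17, a splicing-related protein, was at 9.99 FPKM in exosome replicate 2 and at 12.8 to 14.7 in the other 5 libraries. DNAJC6, the auxilin that strips clathrin from vesicles, was at 15.5 and 15.3 FPKM, and DNAJC13, which sorts cargo at endosomes, at 12.9 and 13.0 FPKM in the group means. DNAJC10, a disulfide reductase of the endoplasmic reticulum, was at 33.5 and 32.5 FPKM, and DNAJC21, a factor of ribosome maturation, at 30.0 and 30.9 FPKM. The lowest member of the class was DNAJC28, at 1.97 and 1.60 FPKM.

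Both remaining symbols that met the rule are not heat shock proteins. HSPBP1, a nucleotide exchange factor of Hsp70, was at 29.5 and 30.4 FPKM, and HSPBAP1, a partner of HSPB1, at 3.29 and 2.96 FPKM in the group means (adjusted p = 0.824 and 0.636).

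Summed over a family, the FPKM of the exosome libraries lay above all controls for Hsp70, Hsp110 and CCT, and below them for class B J-domain proteins. The Hsp70 sum was 953, 930.4 and 922 FPKM in the controls and 997, 971 and 1031 in the exosome libraries, 6.89% higher in the mean. It holds only HSPA5, HSPA9 and HSPA13, because HSPA8 lies outside the symbol rule. Of these 3 genes only the mitochondrial HSPA9 did not overlap, with group means of 235 and 270.2 FPKM. The group means were 673.5 and 702 FPKM in HSPA5 and 26.2 and 27.4 FPKM in HSPA13. The CCT sum was 1347, 1309 and 1307 in the controls and 1462, 1357 and 1403 in the exosome libraries, 6.54% higher. The Hsp110 sum was 211 to 214 against 218 to 231 FPKM, and the class B sum was 349 to 351 against 324 to 340.4 FPKM. Each of these 4 sums had an exact permutation p of 0.1 (two-sided, the smallest possible), or 0.225 adjusted over the 9 families. With libraries scaled to a common median, the CCT sums overlapped (exact permutation p = 0.2). The mitochondrial chaperonin sum, at 697.7 ± 48.0 and 785 ± 57.6 FPKM, the Hsp90 sum, at 998 ± 34.2 and 1045 ± 39.5, and the small heat shock protein sum, at 188 ± 1.39 and 157 ± 27.9, all overlapped between the groups (SD, n = 3 per group). The sums of class A and class C overlapped as well, at 244.9 ± 8.85 and 256 ± 15.2 and at 476 ± 8.45 and 479 ± 5.78 FPKM.

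Exosome replicate 2 lay nearest the control mean among the exosome libraries in 25 of the 50 members (50.0%), against 42.9% of all genes tested. The same library held this place for 14 of the 18 heat shock proteins and chaperonins without a J domain and for 11 of the 30 J-domain genes. Taken as the median over a family relative to the control mean, exosome replicates 1, 2 and 3 stood at 0.28, 0.06 and 0.18 for the mitochondrial chaperonin and at 0.12, 0.04 and 0.08 for CCT. They stood at -0.19, -0.05 and -0.09 for class B. In these 3 families replicate 1 was the farthest from the controls and replicate 2 the nearest.

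**Figure D5:**
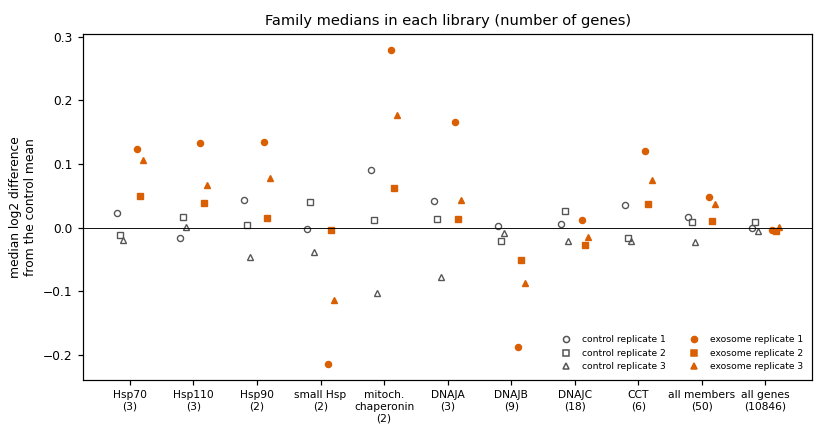
Median over each family of the log2 difference from the control mean, on the log2(FPKM + 1) scale, in each of the 6 libraries (open grey, control; filled orange, exosome; number of genes in brackets). Exosome replicate 1 is highest at 0.28 for the mitochondrial chaperonin, exosome replicate 2 is nearer to 0 than replicates 1 and 3 in every family except class C, and the medians of all genes stay within 0.01 of 0.

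Without exosome replicate 2, which left 2 exosome libraries, 3 of the 50 members passed after adjustment over all genes, against 2.74% of all genes in that fit (0.857% higher, 1.88% lower). HSPB8 passed with a log2 difference of -0.47 (adjusted p = 0.00718), HSPA9 with 0.27 (adjusted p = 0.0347) and HSPD1 with 0.31 (adjusted p = 0.0436). In these 3 genes exosome replicate 2 lay nearest the control mean among the exosome libraries, so leaving it out enlarges their differences by construction. Other libraries moved these differences the other way: without exosome replicate 1 HSPD1 was at 0.15 and HSPA9 at 0.14, and without exosome replicate 3 HSPB8 was at -0.22, none of which passed. In the fit without exosome replicate 2, unadjusted p-values under 0.05 numbered 13 of 50, against 22.1% of all genes. Without replicate 2 of both groups, HSPB8 alone passed (log2 difference -0.47, adjusted p = 0.0313), against 0.535% of all genes (0.424% lower). The count of 7 at an unadjusted p also rested on other libraries. It was 6 of 50 without control replicate 1, against 9.97% of all genes in that fit. It was 1 without control replicate 2, control replicate 3 or exosome replicate 1, against 7.40%, 8.20% and 7.39% of all genes, and 2 without exosome replicate 3, against 12.0%.

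Regulators and partners of the chaperones, taken from lists chosen by function, gave 47 genes that are not members. In limma 0 of the 47 passed, and 2 had an unadjusted p under 0.05, against 12.6% of all genes: TCP1, described above, and PFDN5. The groups did not overlap in 4 of the 47 (8.51%), a share below the 18.7% of all genes. These were TCP1, PFDN5, ATF6 and CANX, the last named after its values were seen. PFDN5, a subunit of the prefoldin complex that hands actin and tubulin to the CCT ring, was at 178, 179 and 178 FPKM in the controls and 156, 167 and 171 in the exosome libraries (log2 difference -0.12, adjusted p = 0.373). Its groups did not overlap, and the other 4 prefoldin genes overlapped. VBP1, of the same complex, had a log2 difference of 0.12.

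Among 17 heat shock factors and co-chaperones, 9 had higher and 8 lower means, with 0 at an unadjusted p under 0.05. HSF1, the transcription factor that switches on heat shock genes, was at 49.2, 45.9 and 44.2 FPKM in the controls and 47.2, 47.3 and 49.0 in the exosome libraries (chosen after its values were seen). BAG1, which releases nucleotide from Hsp70, was at 88.0 and 81.1 FPKM, and TTC4, an Hsp90 partner, at 17.4 and 15.8 FPKM in the group means. Among 17 genes of folding in the endoplasmic reticulum and of the unfolded protein response, 8 had higher and 9 lower means, again with 0 at an unadjusted p under 0.05. ATF6, a membrane-bound sensor of this response, was at 36.7, 42.1 and 43.8 FPKM in the controls and 45.4, 44.8 and 45.1 in the exosome libraries without overlap (adjusted p = 0.441). PPP1R15A, which restores translation after stress, was at 44.5, 43.6 and 44.8 FPKM in the controls and 34.6, 48.5 and 34.8 in the exosome libraries, so its replicate 2 stood above the controls and replicates 1 and 3 below (adjusted p = 0.559).

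The labelled cell type was checked against marker genes. Epithelial markers were abundant, with KRT19 at 3193 and KRT8 at 3037 FPKM in the control mean, and EPCAM is listed as TACSTD1 at 346 FPKM. Of 11 epithelial symbols, which include both EPCAM and TACSTD1, 8 were found. Their sum was 9663 to 10007 FPKM in control libraries and 8436 to 9350 in exosome libraries. At an unadjusted p under 0.05, 5 of 8 were lower, against 7.5% of all genes, and 0 passed after adjustment. The exosome libraries lay below the controls in the same number of these markers, 5 of 8, against 10.4% of all genes. The 10 stromal symbols include both THY1 and CD90, names of the same gene, and 5 of the symbols were found. In the control mean CD90 was at 2328, VIM at 557 and COL3A1 at 1.18 FPKM. The sum of these 5 was 2788 to 3042 FPKM in control libraries and 2274 to 2494 in exosome libraries. At an unadjusted p under 0.05, 1 of 5 (CD90) was lower, against 7.5% of all genes. Endothelial and leukocyte markers found in the table lay below 10 FPKM, and no smooth muscle or male germ cell marker was found in it. In bulk RNA, fewer cells of a type and less RNA per cell cannot be told apart, and the part of the epithelial and stromal marker levels in the chaperone values was not tested.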

How the data were processed

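RNA sequencing of 6 libraries (3 control, 3 exosome) was analysed. The kit keeps strand and selects mRNA, per the labels' protocols. Reads were processed with bcl2fastq 1.8.4, TopHat and Cufflinks on Sscrofa11.1, per the submitters' processing notes. The authors deposited 1 value per gene and library, read here as FPKM. No header names the unit, and it was taken from the tool and the values. The table holds no counts, so depth is unknown and no counting interval is given. Genes with a 0 in any library do not occur in the table, whose lowest value is 0.0882. One row of the 10916 had no values and was left out.

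Values were transformed as log2(FPKM + 1), a scale that understates changes of low genes, and 10846 genes whose mean reached 1 FPKM were tested, which left out 69. The test was that of limma 3.58.1 (R 4.3.3, two-sided, with a mean-variance trend). P-values were adjusted by Benjamini-Hochberg over the 10846 genes, and 0.05 was the threshold. Unadjusted p-values and 95% intervals of genes are from the same fit. Family sums and the ratio were tested with exact permutation (scipy 1.17.1). The code was tested on simulated data. Figures were drawn with matplotlib 3.10.9 in Python 3.11.15.

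The members and lists were chosen with earlier results of these data known. Named members are, in each family, the 2 most abundant and the 2 with the smallest p, and every member with an unadjusted p under 0.05. From each related list the 2 genes with the smallest p could be named. Symbols of 44 members matched the reference gene table by identifier, and 6 identifiers were not in it. Positions are those of RefSeq on Sscrofa11.1, matched by symbol. Sequences were not analysed here. Alternatives changed the pseudocount, the filter, the scaling or the variance model, blocked on the replicate number, or left libraries out.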

Additional observations from a re-analysis of the deposited data

How the results depend on the processing

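Over the 18 alternatives the count of chaperone genes that passed was 0, with 2 exceptions: 3 when exosome replicate 2 was left out, and 1 when replicate 2 was left out of both groups. With single libraries left out, the count of all genes that passed ran from 0 to 297, that of chaperone genes from 0 to 3, and that at an unadjusted p from 1 to 13 against 7. With replicates 1, 2 or 3 left out of both groups the last count was 1, 12 and 1, against 6.00%, 15.0% and 8.17% of all genes at that p, and 0, 58 and 1 of all genes passed. The median log2 difference of Hsp70 was 0.0507 to 0.10 with single libraries left out and 0.0947 without replicate 1 of both groups, against 0.06. That of Hsp90 was 0.14 with quantile normalization against 0.08, that of class B was -0.10 without replicate 3 of both groups and -0.0996 without exosome replicate 3 alone against -0.05, and that of class C was 0.00413 without replicate 2 of both groups against -0.02. The class C sum differed by -2.15 FPKM (control replicate 3 left out) to 5.93 FPKM, against 2.72. Without exosome replicate 1 the medians of Hsp90, small heat shock proteins and class A were 0.0470, -0.0589 and 0.0158, against 0.08, -0.11 and 0.07. The cause of these shifts was not tested.

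Of the named members, 7 changed sign in some alternative, each with a difference under 0.10 in size in the reported analysis. With single libraries left out, HSP90AA1 ran from -0.0174 to 0.0501, DNAJA2 from -0.0281 to 0.0665, DNAJB11 from -0.00189 to 0.0501, DNAJC3 from -0.0384 to 0.0401 and DNAJC7 from -0.0141 to 0.0151. Without replicate 3 of both groups, HSPB11 was at -0.0413, DNAJA2 at -0.0432, DNAJB11 at -0.00305, DNAJC3 at 0.0413, DNAJC7 at 0.00528 and HSPBP1 at -0.0333. DNAJA2 was at -0.0146 without replicate 1 of both groups. DNAJC3 and DNAJC7 were at 0.00132 and 0.0137 with quantile normalization.

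With the replicate number as a block, 0 genes passed and 8 chaperone genes had an unadjusted p under 0.05, against 12.3% of all genes. Whether the numbers pair the samples is not given. Deviations of same-numbered libraries from their group means correlated at 0.161, 0.144 and -0.0701, and control replicate 3 correlated best with exosome replicate 2 (0.169). With 3 libraries per group, whose deviations add up to 0, these correlations cannot decide whether the libraries are paired. The unknown depth limits the low genes, such as CCT6B and DNAJC28.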
